A study of Mus musculus with 8 samples.

Results

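The genes described here are 10 members of the p53 pathway and of the cell cycle inhibitor families, chosen by name out of 21938 protein-coding genes. They are Trp53, which encodes p53, its negative regulator Mdm2, its target genes Cdkn1a, Ccng1, Gadd45a, Btg2 and Bbc3, the Gadd45a paralog Gadd45b, and the paired inhibitor genes Cdkn2a and Cdkn2b. For each gene, the peaks of acetylated lysine 27 of histone H3 (H3K27ac), which marks promoters and enhancers in use, were collected over the gene body and 50 kb either side, a stretch called the window of the gene. Runs of 4 values are given in the order control 1, control 2, test 1 and test 2. The peaks came from chromatin immunoprecipitation sequencing (ChIP-seq) of 4 breast tumors of Balb/c mice, each from a separate mouse. The 2 control tumors grew in PyMT;Rag1KO mice and the 2 test tumors in K14-TSLPtg;PyMT;Rag1KO mice. In both groups the polyoma middle T oncogene (PyMT) was expressed in the mammary epithelium from the MMTV promoter, and loss of Rag1 left the hosts without T and B cells of their own. CD4+ T cells were transferred into all mice when they were 4 weeks old, so T cells in either group were donor cells. The test mice differed by a transgene for thymic stromal lymphopoietin (TSLP), a cytokine of epithelial cells that stimulates CD4+ T cells, driven by the keratin 14 promoter of basal epithelium. The sample names call the control specimens tumor and the test specimens cyst. Mice were taken once a tumor had grown to a set end size or health declined, and the labels give no age for the single tumors.

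The protein p53 is a transcription factor that is stabilized when DNA is damaged or an oncogene drives growth, and it binds a paired ten-base motif in its target genes. Its targets halt the cell cycle (Cdkn1a, Btg2, Gadd45a), kill the cell (Bbc3) or close a feedback loop in which Mdm2 marks p53 for degradation. Cdkn2a encodes the inhibitor p16 from one start and, from another start further upstream, the protein ARF, which restrains Mdm2. Lasting activity of these inhibitors is a feature of senescence, and in mammary epithelium cell cycle exit also accompanies differentiation. Acetylation marks a promoter or enhancer as active and measures neither RNA nor p53 protein.

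Sequences that match the p53 motif inside acetylated regions are shown first, because the motif is the sequence through which p53 recognizes its targets. The motif searched was the full p53 site, the consensus decamer repeated with no spacer, over 20 bases, with the core letters of each decamer required and at most 2 mismatches among the 12 outer positions. Its pattern reads the same on both strands. Below, 6 matches in the windows that lay in peaks are given from the GRCm38 (mm10) reference genome of RefSeq, which is that of C57BL/6J mice and may differ from the Balb/c genome of the tumors. Each line has the 20-base match in capitals with 20 bases either side, written 5′ to 3′ along the strand of the gene.
Cdkn1a, 0.04 kb upstream of the gene start: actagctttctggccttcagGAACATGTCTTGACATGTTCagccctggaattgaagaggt
Cdkn1a, 11.93 kb upstream, in the first exon of Trp53cor1: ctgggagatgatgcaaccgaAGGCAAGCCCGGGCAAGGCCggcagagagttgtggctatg
Mdm2, 6.99 kb upstream, intergenic: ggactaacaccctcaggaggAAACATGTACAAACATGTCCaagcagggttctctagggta
Ccng1, 0.37 kb downstream, intron: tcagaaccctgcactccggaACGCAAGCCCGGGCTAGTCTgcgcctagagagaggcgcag
Btg2, 22 kb upstream, intergenic: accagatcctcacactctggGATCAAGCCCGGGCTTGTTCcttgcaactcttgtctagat
Cdkn2b, 2.63 kb downstream, intron: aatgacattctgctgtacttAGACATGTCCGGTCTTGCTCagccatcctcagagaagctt

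The first 5 matches lay inside peaks of all 4 tumors. They are at chr17:29090928-29090947 and chr17:29079039-29079058 (plus strand), chr10:117717736-117717755, chr11:40754936-40754955 and chr1:134101114-134101133 (minus strand). The match in the intron of Cdkn2b, at chr4:89308400-89308419 on the minus strand, lay inside a peak in control 1 and in control 2 but not in either test tumor. All 6 had 1 mismatch. Within 3 kb before and 1 kb after the gene start, 2 of the 10 genes (Cdkn1a and Ccng1) held a match, which is 20%, beside 2.37% of all 21938 protein-coding genes. The 10 genes were chosen by name, several as p53 targets, so the higher share cannot be separated from that choice. Among all H3K27ac regions the share with a match was 1.06%, and among the regions found in all 4 tumors it was 1.98%. The windows held further matches. One 21.15 kb downstream of Ccng1, at the start shared by Hmmr and Nudcd2, lay in peaks of all 4 tumors, and one 11.22 kb upstream of Mdm2 in peaks of control 1 and test 2. Both of these had 2 mismatches. The Trp53 window held none, and those in the windows of Gadd45a, Gadd45b and Bbc3 lay in no peak. Other windows also held matches in no peak, all downstream of the gene start. These lay at 25.02 and 10.83 kb for Mdm2, 43.64 and 25.94 kb for Btg2, 31.24 kb for Ccng1 and 59.71 kb for Cdkn2a. A match describes the letters of the reference and does not show that p53 was bound.

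All 10 genes carried a peak within 1 kb of the gene start in all 4 tumors (10 of 10, beside 49.6% of protein-coding genes). The peaks at these starts were wide, with a median of 2615 bp over the 10 genes and 1689 bp over the 10874 genes with such a peak in every tumor. Together the windows held 117 distinct regions, formed by joining peaks of the 4 tumors that overlapped or touched, and 60 of them (51.3%) were present in every tumor. Of the 78872 regions in the window of any protein-coding gene, 39.6% were present in every tumor. The windows of Cdkn2a and Cdkn2b overlap and share 7 regions, which were counted once here.

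Coverage, the percent of a window that lay in peaks, had a median of 12.1% over the 10 genes and 4.64% over the 18693 protein-coding genes with any coverage. Btg2 had the most, with a mean over the 4 tumors above that of 99.5% of genes, and Cdkn2a lay near the middle, above 51.2%. The tumors are mixed tissue, in which fewer cells of a type and less acetylation per cell cannot be told apart. For 4 genes, Cdkn1a, Bbc3, Cdkn2a and Btg2, coverage was higher in both control tumors than in both test tumors, an order seen in 13.0% of all genes. For 2 genes, Trp53 and Mdm2, it was higher in both test tumors, an order seen in 17.3% of all genes. In the remaining 4 genes, Ccng1, Gadd45a, Gadd45b and Cdkn2b, the groups overlapped. The mean of the test tumors was the lower one in 7 of the 10 genes and in 48.6% of all genes, and the median difference, test minus control, was -0.944 percentage points for the 10 genes and 0.0192 points for all genes. For the 10 genes the median was -0.397 points without control 1, -1.804 points without test 1, -0.298 points with 100 kb either side and -0.141 points with peaks of at least 1 kb. The 10 genes were not matched with all genes for coverage, and a difference in points can be larger where coverage is higher. Peaks shared by the windows of Cdkn2a and Cdkn2b count for both genes here.

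With 2 tumors per group, a two-sided exact permutation test cannot give a p below 0.333. Each of the 6 genes with separate groups reached that value (exact permutation test, p = 0.333), so none of the differences can be called significant, and the order of the tumors and their spread are what the data give. The counts also moved with the window. With 20 kb either side, Trp53 joined the genes higher in both control tumors, making 5 of 10 beside 12.9% of all genes, and 0 of 10 were higher in both test tumors, beside 18.04%. With 100 kb either side 0 of the 10 had separate groups in either direction, beside 12.9% and 16.5% of all genes.

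**Figure D1:**
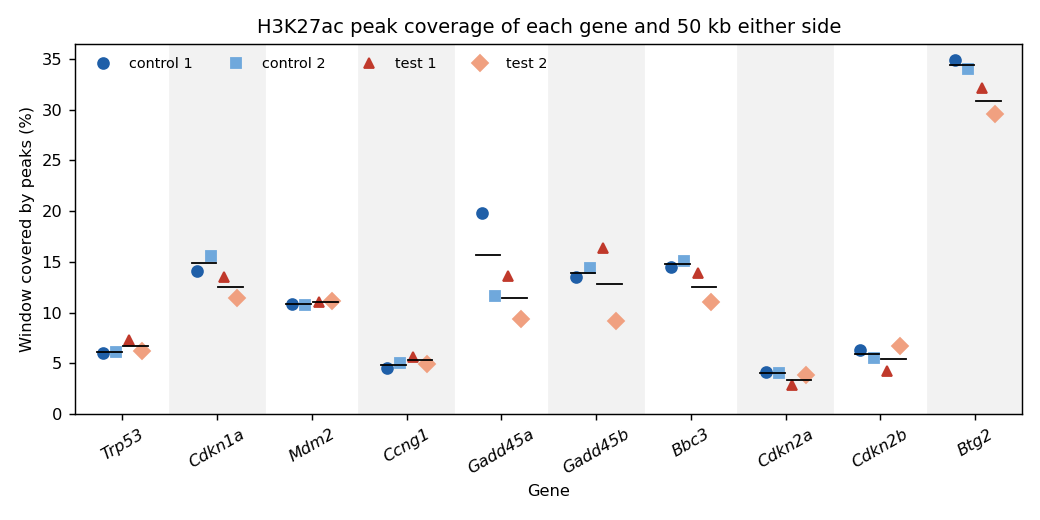
Percent of the window (gene body and 50 kb either side) lying in H3K27ac peaks, vertical axis, for the 10 genes, with 1 point per tumor and a bar at the mean of each group of 2. Btg2 lies between 29.61% and 34.86%, all other genes at or below 19.77%, and the control points lie above the test points for Cdkn1a, Bbc3, Cdkn2a and Btg2.

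Test 2 had the fewest peaks of the 4 tumors, 59762, beside 69861 in control 1, 67850 in control 2 and 65763 in test 1. In the windows of the 10 genes, 10 of the 117 regions (8.55%) were missing from test 2 alone, beside 6.52% of regions in all gene windows. For control 1, control 2 and test 1 the same count was 0, 2 and 3. Read depth is unknown, and an absent peak cannot be told apart from one too weak to be called. When each tumor was reduced to its 59762 widest peaks, the same 4 genes were higher in both control tumors and the same 2 in both test tumors, beside 11.7% and 18.9% of all genes. With peaks of at least 1 kb alone, Cdkn1a and Btg2 were higher in both control tumors, 2 of 10 beside 9.90% of genes, and Mdm2 in both test tumors, 1 of 10 beside 19.7%.

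Luminal epithelial markers had start peaks in 12, 11, 12 and 11 of 12 genes in control 1, control 2, test 1 and test 2 and a mean window coverage of 28.6%, 26.3%, 29.7% and 27.8%. They thus marked the labelled breast epithelium in every tumor. Of these markers 0 of 12 were higher in both control tumors, beside 13.0% of all genes. In both test tumors 3 of 12 were higher, beside 17.3%, and the median difference was 1.63 points. The mean coverage of myeloid and of endothelial markers was higher in both control tumors than in both test tumors. The 15 myeloid markers had a mean coverage of 9.68% and 8.60% in the control group and 8.32% and 6.20% in the test tumors, and 10 of the 15 were higher in both control tumors, beside 13.0% of all genes. The 11 endothelial markers had 6.06% and 6.22% against 5.58% and 4.61%, with 6 of 11 higher in both control tumors, beside the same 13.0%. The 12 fibroblast markers had 4.64%, 3.98%, 4.23% and 3.39%, and the 8 myoepithelial markers 7.83%, 6.84%, 7.51% and 4.87%, with groups that overlapped. Of these, 4 of 12 and 3 of 8 markers were higher in both control tumors, beside 13.0% of all genes. Markers with a start peak, in the same order of tumors, numbered 12, 10, 10 and 8 for myeloid and 7, 6, 4 and 0 for endothelial cells. They numbered 5, 4, 3 and 0 for fibroblasts and 5, 1, 3 and 0 for myoepithelial cells. The 9 T cell markers had 8.46%, 7.60%, 9.08% and 7.55%, with a start peak at no more than 1 gene in any tumor. Of these, 4 of 9 were higher in both test tumors, beside 17.3% of all genes, and 2 of 9 in both control tumors, beside 13.0%. Single markers ranged widely. Cd68 was covered over 20.15% to 28.11% and Col1a1 over 11.81% to 18.24%, while Lum had no coverage in any tumor and Adgre1 0.16% in control 1 alone. The part of these cell types in the differences at Cdkn1a, Bbc3, Cdkn2a, Btg2 and Gadd45a was not tested.

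Trp53 and its regulator Mdm2 differed little between the groups. Coverage of the Trp53 window was 6.04% for control 1, 6.11% for control 2, 7.30% for test 1 and 6.21% for test 2. Both test tumors were higher, test 2 by little, with a difference of 0.682 points. The SD over the 4 differences between single test and control tumors, called the SD of the pairings, was 0.628 points. The same tumors recur in these differences, so they are not independent and a comparison with this SD is no test. The coverage difference was 0.139 points without test 1 and 1.224 points without test 2. It was 0.216 points without the promoters of other genes and 1.504 points with peaks of at least 1 kb. The groups overlapped in both of these settings. With 20 kb either side the difference was -0.242 points. The start of Trp53 lies 0.104 kb from that of Wrap53, a neighbour transcribed the other way that encodes a telomerase and Cajal body protein, and 1 region over both starts (chr11:69578344-69582458) was acetylated over 3829, 3517, 3748 and 3281 bp in control 1, control 2, test 1 and test 2. The groups overlapped there. At the start of Fxr2, 52.6 kb downstream, the region was covered over 1379, 1094, 2311 and 1084 bp. In test 1 a single peak ran over that start, and in the other 3 tumors a pair of peaks lay on either side of it.

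Coverage of the Mdm2 window was nearly the same in the 4 tumors, at 10.89% and 10.74% in the control group and 11.02% and 11.10% in the test tumors. The groups did not overlap, but the difference was 0.247 points, and without the promoters of other genes it was 0.126 points with overlapping groups. The difference was 0.743 points with peaks of at least 1 kb and 0.382 points with equal peak numbers. With 100 kb either side it turned to -0.047 points. The peak over the Mdm2 start measured 2954 and 3055 bp in the control group and 3062 and 3065 bp in the test tumors, and it also took in the intragenic starts of other annotated transcripts up to 0.74 kb downstream. The start of Mdm2 was the only one of the 10 that was wider in both test tumors, by 59 bp on average, beside 24.7% of genes. That difference was 8.5 bp without control 1 and 109.5 bp without control 2. The upstream region with the p53 match (chr10:117717088-117718773) was present in every tumor, over 1306, 1588, 1293 and 1603 bp, with overlapping groups. The widest region of the window, 7229 bp, was not at Mdm2 but at the start of Slc35e3, a neighbouring gene.

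Cdkn1a encodes p21, the cyclin-dependent kinase inhibitor through which p53 stops the cycle before DNA synthesis. Coverage of its window was 14.11% for control 1, 15.57% for control 2, 13.54% for test 1 and 11.42% for test 2. Both control tumors were higher. The difference was -2.37 points, with an SD of the pairings of 1.49 points. Without test 2, the lowest tumor, it was -1.31 points. It was -4.076 points with 20 kb either side and -0.288 points with 100 kb. The gene start and a start 2.79 kb downstream lay in peaks in all 4 tumors, while the start of the transcript Cdkn1a-203, 6.92 kb downstream, lay in no peak in any tumor. A region of 7403 bp (chr17:29089609-29097011) spanned the first pair of starts, and peaks covered 6476 bp of it in control 1, 6884 bp in control 2, 6161 bp in test 1 and 4915 bp in test 2, again more in both control tumors. In control 2 and test 1 a single peak ran over both of these starts, while in control 1 and test 2 it was split between them. The match to the p53 motif 0.04 kb before the gene start lay inside the peak of every tumor. Over the gene body, 55.2% and 56.7% of bases lay in peaks in the control group and 52.1% and 40.6% in the test tumors.

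Upstream of Cdkn1a lies Trp53cor1, which encodes lincRNA-p21, a long noncoding RNA induced by p53 and read in the opposite direction. Its start, 11.8 kb upstream of Cdkn1a, lay in a peak in all 4 tumors, of 2236, 2195, 2125 and 2164 bp, and this peak holds the second motif match shown above. Widths differed by little and both control tumors were the wider. Inside Trp53cor1, 2 further regions centred 14.5 and 13.6 kb upstream of Cdkn1a were acetylated in control 1, control 2 and test 1 and had no peak in test 2. The 860-bp region was covered over 583, 580 and 425 bp, and the 334-bp region over 334, 158 and 166 bp. Downstream of Cdkn1a there was almost no acetylation, with 0, 0.61, 0.47 and 0 kb in peaks.

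**Figure D2:**
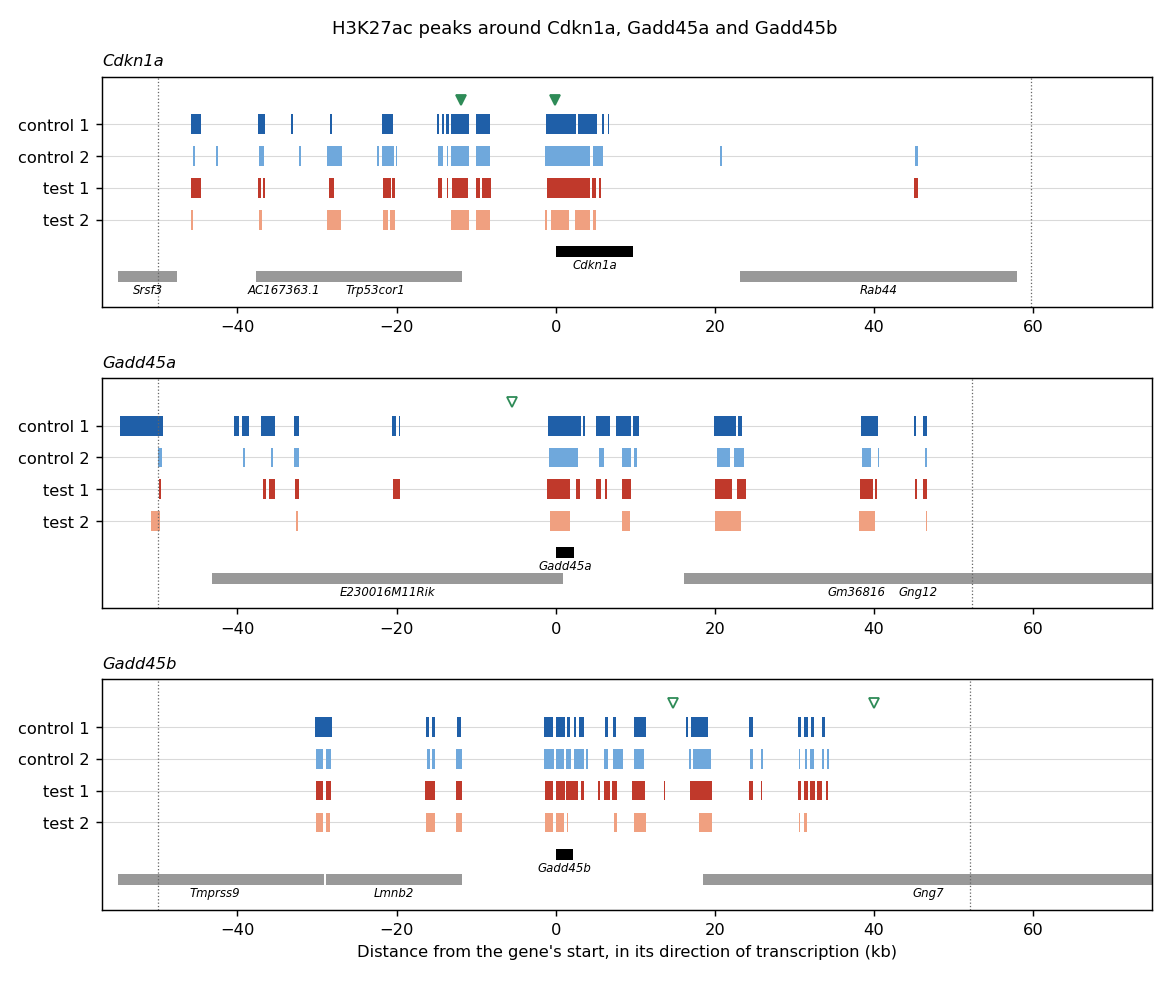
H3K27ac peaks of each tumor around Cdkn1a, Gadd45a and Gadd45b, against the distance from the gene start in kb along the direction of transcription. Black bars are the named gene and grey bars neighbouring genes, dotted lines the ends of the window, and triangles p53 motif matches, filled where all 4 tumors had a peak over them. The 7403-bp region at Cdkn1a is near-continuous in 3 tumors and shortest in test 2, and the Gadd45a start peak ends earlier on its downstream side in both test tumors.

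Gadd45a, a stress sensor that takes part in growth arrest and DNA repair, had the only control-only regions among the 10 genes. A control-only region is one with peaks in control 1 and control 2 and no peak in the test tumors, and 1 of the 10 genes held at least 1, beside 22.3% of genes. There were 2 such regions of the 117 (1.71%), beside 3.33% of regions in all gene windows. The count was 1 with 20 kb either side, 5 with 100 kb, 1 with peaks of at least 1 kb, 4 when 50% overlap was required and 5 to 16 with each tumor left out. Part of each is printed here from the GRCm38 (mm10) reference, on the minus strand as the gene reads, because these stretches separate the groups. The printed bases are those covered in both control tumors, or the central 200 of them.
Gadd45a, 10.1 kb downstream (chr6:67027384-67027583): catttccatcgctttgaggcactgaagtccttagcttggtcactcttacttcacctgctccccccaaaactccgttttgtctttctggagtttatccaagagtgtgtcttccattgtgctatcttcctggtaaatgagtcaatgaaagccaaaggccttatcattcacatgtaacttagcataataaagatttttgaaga
Gadd45a, 39 kb upstream (chr6:67076531-67076730): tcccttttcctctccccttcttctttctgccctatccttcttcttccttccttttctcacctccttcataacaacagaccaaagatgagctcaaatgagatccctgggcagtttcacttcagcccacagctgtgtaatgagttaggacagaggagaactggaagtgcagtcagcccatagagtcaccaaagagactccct

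The downstream region (chr6:67027050-67027693) is intergenic and was covered over 644 bp in control 1 and 364 bp in control 2. The upstream region (chr6:67076004-67076840) overlaps an exon of the long noncoding RNA gene E230016M11Rik, whose start shares the start region of Gadd45a, and was covered over 837 and 274 bp. Neither printed stretch held a p53 match. The downstream region sits in a row of peaks behind the gene in which control 1 had the most coverage. Next to it, a region centred 8.5 kb downstream was covered over 1902, 1131, 1170 and 1028 bp, and one centred 6 kb downstream over 1867, 610, 954 and 0 bp. In each of these, control 1 stood above the other 3 tumors.

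The peak over the Gadd45a start measured 4162 and 3711 bp in the control group and 2887 and 2502 bp in the test tumors. Both control tumors were wider. The mean difference was -1242 bp with an SD of the pairings of 342 bp, and it ran from -1467.5 to -1016.5 bp with each tumor left out in turn (exact permutation test, p = 0.333, n = 2 tumors per group). The peak reached 983, 897, 1063 and 738 bp upstream of the start, where the groups overlapped, and 3179, 2814, 1824 and 1764 bp downstream, where they did not. The whole gene body lay in the peak in both control tumors (100% of its bases) and 77.3% and 74.7% of it in the test tumors. In test 1 a second, separate peak lay in the same region further downstream. Start peaks were wider in both control tumors for 2 of the 10 genes, Gadd45a and Btg2, beside 9.76% of genes.

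Over the whole Gadd45a window the groups overlapped, with coverage of 19.77% for control 1, 11.61% for control 2, 13.62% for test 1 and 9.34% for test 2. Control 1 stood apart from the others. It had the most acetylation on both sides of the gene, with 6.09, 2.46, 3.72 and 1.27 kb in peaks upstream and 11.78, 7.06, 8.40 and 6.53 kb downstream. The difference of -4.21 points was -0.128 points without control 1.

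Gadd45b, a paralog of Gadd45a that responds to stress and to cytokines, had overlapping groups and depended on a single test tumor. Coverage was 13.53% and 14.35% in the control group, 16.38% for test 1 and 9.16% for test 2. Test 1 was the highest and test 2 the lowest of the 4, and without test 2 the difference changed from -1.17 to 2.44 points. Of its 21 regions, 4 had peaks in the other 3 tumors and none in test 2, and 3 of these lay in introns of the neighbouring gene Gng7. At the start itself, each tumor had a pair of peaks, one before the start and one at or just behind it, with summed widths of 2302, 2187, 2224 and 2068 bp. These differed little.

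Btg2, an antiproliferative gene induced by p53, had the broadest acetylation of the 10 genes. Its window was covered over 34.86% for control 1, 33.96% for control 2, 32.14% for test 1 and 29.61% for test 2. Both control tumors were higher. The difference was -3.53 points, with an SD of the pairings of 1.55 points. It was -2.27 points without test 2, -6.453 points with 20 kb either side and -1.359 points with 100 kb. The start peak was almost constant, at 4865 and 4882 bp in the control group and 4770 and 4813 bp in the test tumors, a difference of -82 bp. A region of 10412 bp upstream of the gene (chr1:134091520-134101931), which holds the p53 match 22 kb from the start, was almost fully covered in every tumor, over 9789, 10165, 9762 and 9887 bp. The groups overlapped there.

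The lower coverage of Btg2 in the test tumors lay elsewhere. Downstream of the gene, peaks covered 12.44, 12.75, 12.09 and 8.78 kb, so that test 2 was low and test 1 close to the control tumors. One region of 9014 bp centred 16.2 kb downstream was covered over 8602, 7992, 8159 and 6939 bp, and a region of 3757 bp centred 8.3 kb downstream over 3644, 3418, 3621 and 1839 bp. Upstream, the sum was 21.14 and 20.56 kb in the control group and 19.40 and 20.19 kb in the test tumors, with both control tumors higher.

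**Figure D3:**
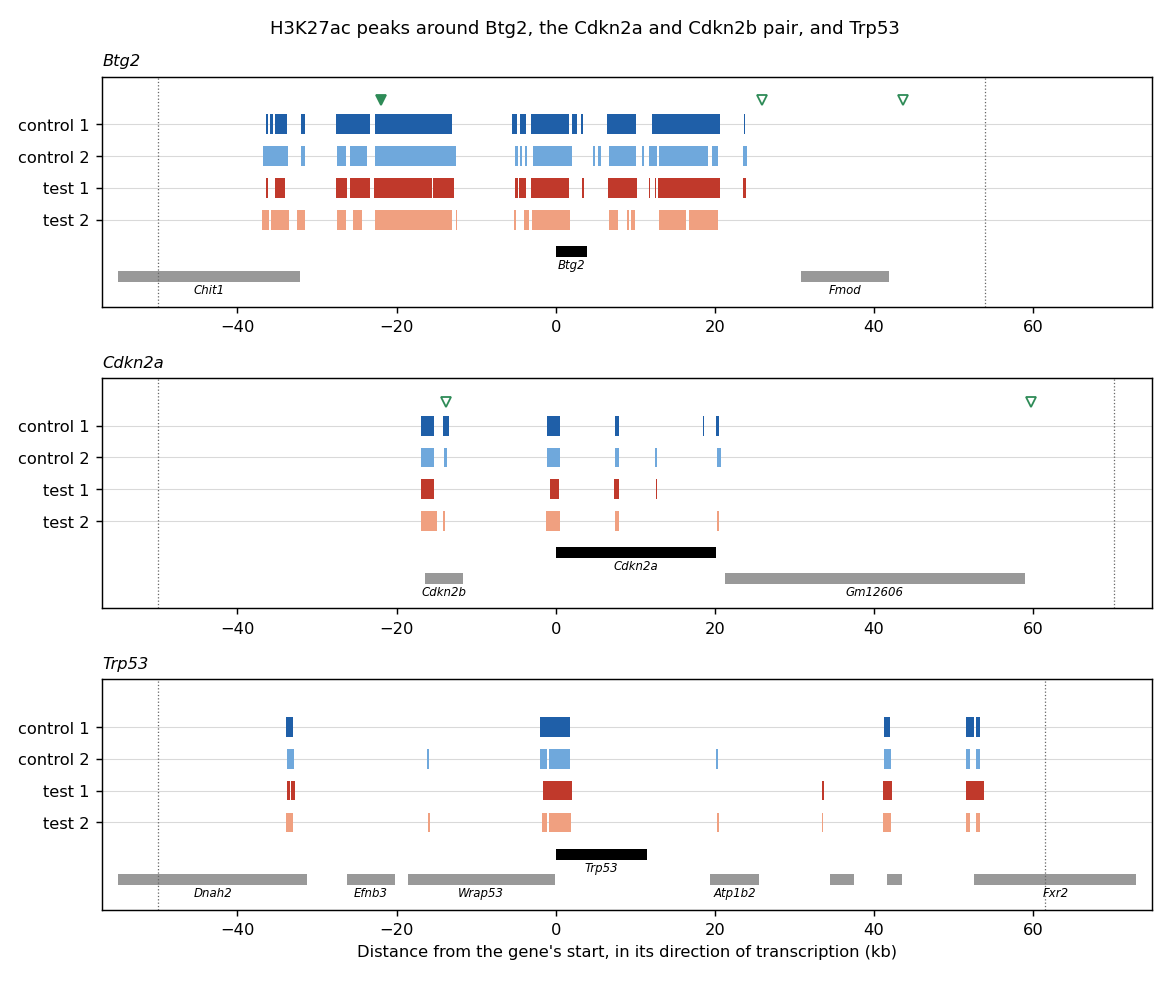
H3K27ac peaks of each tumor around Btg2, Cdkn2a with Cdkn2b upstream of it, and Trp53, drawn as in the map of Cdkn1a. Btg2 is flanked by wide regions in all tumors, peaks lie over the upstream start of Cdkn2a and the start of Cdkn2b in every tumor, and the short test-only region lies 33.6 kb downstream of the Trp53 start.

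Ccng1, which encodes cyclin G1, a p53 target that acts in the Mdm2 loop, had overlapping groups. Coverage was 4.58%, 5.07%, 5.65% and 4.92% in control 1, control 2, test 1 and test 2. Its start peak of 1831, 1739, 2027 and 1821 bp, which held the intronic p53 match in every tumor, overlapped between the groups as well. Apart from this peak, the acetylation of the window lay in Hmmr and at the shared start of Hmmr and Nudcd2, which are neighbours on the downstream side.

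Bbc3 encodes PUMA, a protein of the outer mitochondrial membrane by which p53 starts apoptosis. Its window was covered over 14.46% and 15.05% in the control group and 13.91% and 11.08% in the test tumors. Both control tumors were higher. The difference was -2.26 points, with an SD of the pairings of 1.67 points, and it was -0.846 points without test 2. The peak over the gene start measured 2252, 2182, 2275 and 1972 bp, and a second peak in the gene body, centred 4.7 kb downstream, 3178, 2925, 2820 and 3165 bp. Both overlapped between the groups. Part of the difference in the window lay inside the neighbouring gene Sae1, where a region centred 57.5 kb from the Bbc3 start was covered over 3415, 3552, 2794 and 1834 bp, more in both control tumors. A region at the start of C5ar1, the receptor for complement C5a on myeloid cells, was covered over 775, 1028, 411 and 0 bp.

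Cdkn2a and Cdkn2b, the neighbouring inhibitor genes whose proteins p16 and p15 block the kinases that pair with D-type cyclins, were acetylated at their starts and in other regions of the windows. Coverage of the Cdkn2a window was 4.12% and 4.02% in the control group and 2.82% and 3.89% in the test tumors, with test 1 the lowest and test 2 close to the controls. The difference was -0.718 points, -0.183 points without test 1, -0.012 points with peaks of at least 1 kb and -1.434 points with 20 kb either side. Coverage of the Cdkn2b window was 6.31%, 5.57%, 4.20% and 6.70%, and the groups overlapped. The widest region of that window, 2081 bp centred 49.6 kb upstream and reaching past its edge, was intergenic and covered over 1589, 836, 762 and 2081 bp.

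At Cdkn2a the 2 starts differed. The upstream start, that of the ARF transcript, lay in a peak in all 4 tumors, of 1535, 1619, 1134 and 1732 bp. The start of the p16 transcript, 12.46 kb further on, lay in no peak in any tumor (0 of 4), and short peaks of 192 bp in control 2 and 166 bp in test 1 were all that came within 1 kb of it. The start of Cdkn2b lay in a peak of 1672, 1679, 1560 and 2050 bp. In the intron of Cdkn2b, the 750-bp region around the p53 match (chr4:89308099-89308848) was covered over 700 bp for control 1, 347 bp for control 2, 0 bp for test 1 and 283 bp for test 2. The region thus had a peak in 3 tumors, and the 20-base match fell outside the shorter peak of test 2.

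The only test-only region of the 10 windows, with peaks in test 1 and test 2 and no peak in the control tumors, lay 33.6 kb downstream of the Trp53 start, between Atp1b2 and Shbg. It counts for 1 of the 10 genes, beside 12.2% of genes, and for 0.855% of the regions, beside 1.47% in all gene windows. The count was 0 with 20 kb either side and 0 when each tumor had the same number of peaks, and it was 4 with 100 kb and 1 to 4 with each tumor left out. The whole region (chr11:69613802-69614043) is 242 bp long and was covered over 168 bp in test 1 and 213 bp in test 2. The bases covered in both test tumors (GRCm38, plus strand) are shown as the counterpart of the Gadd45a regions, and they hold no p53 match.
Trp53, 33.6 kb downstream (chr11:69613876-69614014): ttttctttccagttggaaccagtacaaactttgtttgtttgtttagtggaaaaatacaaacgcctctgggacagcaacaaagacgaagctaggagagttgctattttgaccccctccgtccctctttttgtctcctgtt

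**Figure D4:**
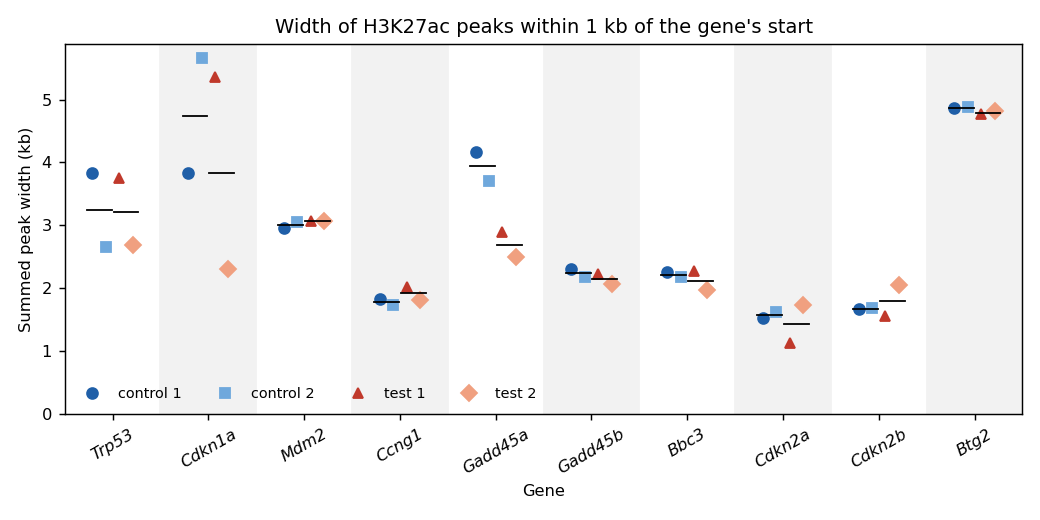
Summed width in kb, vertical axis, of the peaks within 1 kb of each gene start, with 1 point per tumor and a bar at the mean of each group of 2. The control points of Gadd45a, 4162 and 3711 bp, lie above its test points, 2887 and 2502 bp, while Cdkn1a spreads widely within each group and Btg2 and Mdm2 hardly vary.

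**Figure D5:**
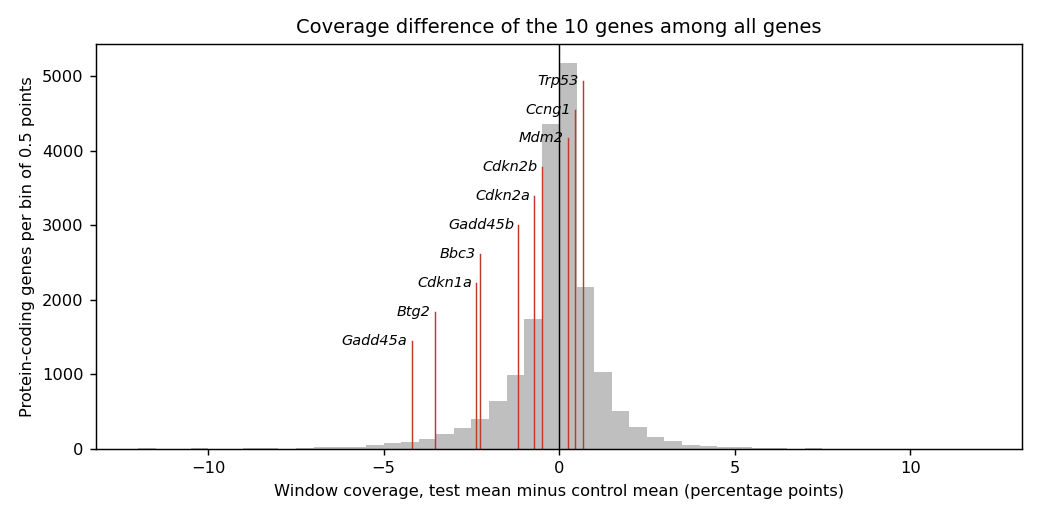
Number of protein-coding genes, vertical axis, per bin of 0.5 percentage points of the window coverage difference, test mean minus control mean, with the 10 genes marked by lines. Genes beyond the axis are counted in the outermost bins. The 10 genes run from -4.21 points for Gadd45a to 0.682 points for Trp53, and 7 lie below 0.

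Other genes of the pathway were examined as 50 genes in 5 lists. A start peak was present in all 4 tumors for 37 of the 50, beside 49.6% of all protein-coding genes. Coverage was higher in both control tumors for 16 of the 50, beside 13.0% of all genes, and in both test tumors for 3, beside 17.3%. The median difference was -0.44 points, and 0.0192 points over all genes, again without matching for coverage. By list, and again beside 13.0% of all genes, the genes higher in both control tumors were 1 of 8 p53 regulators and damage kinases, 4 of 15 p53 targets in arrest and repair, 4 of 10 p53 targets in cell death, 3 of 7 other cell cycle inhibitors, and 4 of 10 secreted factors of senescent cells. The share of the regulators lay near that of all genes. Those higher in both test tumors were 2 of 8 regulators and 1 of 7 cell cycle inhibitors, beside 17.3% of all genes.

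Among these genes the widest drop with separate groups was that of Gdf15, a stress cytokine, whose window was covered over 31.96%, 32.77%, 31.62% and 24.14% in control 1, control 2, test 1 and test 2. It was followed by Igfbp7, a secreted binding protein of insulin-like growth factors, with 11.53%, 9.23%, 8.30% and 4.30%, and by Plk2, a polo-like kinase induced by p53, with 7.14%, 9.79%, 4.74% and 5.49%. In each of these both control tumors were above both test tumors. For Gdf15, test 1 lay close to the control tumors, so its rank rested on test 2. Among genes with separate groups, the largest rises belonged to Ppm1d, a phosphatase that counters p53, with 5.54%, 5.51%, 5.83% and 6.56%, to Trp53bp1, a DNA break response protein, with 2.69%, 2.44%, 3.33% and 2.89%, and to Rbl2, a relative of the retinoblastoma protein, with 3.10%, 3.66%, 4.03% and 3.72%. Start peaks that both controls had and both test tumors lacked were found for 2 of the 50 genes, both secreted factors, beside 0.533% of all protein-coding genes. These were Il6, with 845 and 438 bp, and Igfbp3, with 308 and 223 bp. The whole window of Igfbp3 did not separate the groups, with coverage of 1.54%, 0.91%, 0% and 2.43%, the highest in test 2. The reverse was found for 0 of the 50 genes, beside 0.301% of all genes.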

How the data were processed

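H3K27ac ChIP-seq peak lists of 4 tumors (2 control, 2 test, grouped by the genotype in the labels) were used. The deposited lists hold interval positions only, with no score, signal or read count. The authors used BWA for alignment to mm10 and MACS2 for peak calling, tumor by tumor and against the input of the same tumor, and per the file names the peaks were then cleaned and merged. Tool versions are not given in the sources used here. The smallest gap between intervals was 201 bp, so nearby peaks had been joined and widths depend on that step. The inputs were not analysed here.

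Gene and transcript starts came from GENCODE M21 (GRCm38), and the start of a gene was its annotated 5′ end. Touching or overlapping peaks of different tumors were joined into regions, each present in a tumor with at least 1 bp in a peak. Differences were test mean minus control mean. Alternatives were windows of 20 and 100 kb, peaks of at least 1 kb, equal peak numbers, exclusion of promoters of other genes, 50% overlap for regions, and each tumor left out. The genes, lists and tests were chosen with earlier results of these data known. Named from the lists were the 3 genes with the largest difference in each direction among those with separate groups, and those with group-specific start peaks. Cd68, Col1a1, Lum, Adgre1 and neighbours that share no start or group-specific region with the 10 genes were named after their values were seen. The code was tested on simulated data (Python 3.11.15, numpy 2.4.6, scipy 1.17.1, matplotlib 3.10.9).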

Additional observations from a re-analysis of the deposited data

How the results depend on the processing

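The median coverage difference of the 10 genes (-0.944 points) was negative in all 9 alternatives, at -0.298 points with 100 kb either side and -0.141 points with peaks of at least 1 kb, and between -1.804 and -0.397 points with each tumor left out. The count of genes higher in both control tumors (4) was 0 with 100 kb and 2 with peaks of at least 1 kb, and 4 to 6 with each tumor left out. The count higher in both test tumors (2) was 0 with 20 kb, 0 with 100 kb, 1 with peaks of at least 1 kb and 1 (Ccng1) without the promoters of other genes, and 2 to 4 with each tumor left out. Control-only regions (2) numbered 1 with 20 kb, 5 with 100 kb, 1 with peaks of at least 1 kb and 4 with 50% overlap, and 5 to 16 with each tumor left out. Test-only regions (1) numbered 0 with 20 kb, 4 with 100 kb and 0 with equal peak numbers, and 1 to 4 with each tumor left out. A group of 1 tumor is passed more easily by construction, and with a tumor left out these counts rose or stayed the same. The coverage difference turned to -0.242 points with 20 kb and -0.093 points with 100 kb for Trp53, and to -0.047 points with 100 kb for Mdm2. Among genes whose groups overlapped, it turned to -0.551 points with 100 kb for Ccng1, to 0.1 points with 100 kb and 2.436 points without test 2 for Gadd45b, and to 0.76 points without test 1 for Cdkn2b. Those of Cdkn1a, Gadd45a, Bbc3, Cdkn2a and Btg2 kept their sign in all 9 alternatives but came as near to 0 as -0.288, -0.128, -0.846, -0.012 and -1.359 points. Apart from the size of the window and the tumors left out, the cause of these shifts was not tested. No paired analysis was possible because the labels give the tumors no shared replicate numbers.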
